A study of Saccharomyces cerevisiae with 10 samples.

Results

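Heat shock and stress protein genes were followed through the chromatin accessibility of a yeast population on 5 days of an evolution experiment. The members were 10 genes: HSP104 (YLL026W), HSP78 (YDR258C), HSP42 (YDR171W), HSP26 (YBR072W), HSP12 (YFL014W), HSP82 (YPL240C), SSA3 (YBL075C), SSA4 (YER103W), HSP30 (YCR021C) and CTT1 (YGR088W). A peak was taken as a member when the deposited annotation named one of these genes as its nearest promoter, which gave 6 peaks at 6 genes among the 3515 peaks of the series. The other 4 genes, HSP12, HSP26, HSP82 and SSA3, had no peak assigned to them. ATAC-seq, in which the Tn5 transposase cuts open chromatin and tags it for sequencing, had been applied to cells of Day 0, Day 3, Day 7, Day 10 and Day 28, with 2 libraries per day and 10 in all. Every group was the same strain, WP35, a haploid W303 of mating type alpha that carries YFP under the GAL1 promoter at the ho locus. The cells with the lowest YFP had been sorted daily up to Day 7, so that Day 0 was the unevolved population, Day 3 and Day 7 were taken under selection, and Day 10 and Day 28 after it had ended. All groups were revived from frozen stocks of 1 evolution replicate. They were grown in synthetic complete medium with mannose and then in the same medium with mannose and galactose. With 1 evolution replicate, p-values between days measure only the spread between these libraries.

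Yeast answers heat and other stresses through partly separate routes. The factor Hsf1 binds heat shock elements, which are alternating repeats of GAA and TTC, and drives chaperone genes, while Msn2 and Msn4 bind stress response elements (AGGGG) at a wide set of genes that protect the cell. The proteins encoded here include disaggregases that pull proteins out of aggregates, small heat shock proteins that hold unfolded proteins, Hsp70 and Hsp90 chaperones, a regulator of the plasma membrane proton pump, and a catalase that breaks down hydrogen peroxide.

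The whole HSP104 peak and stretches upstream of 4 other genes are shown because they hold the stress response and heat shock elements within the member peaks. The sequences are from the RefSeq R64 genome and run 5′ to 3′ on the strand of the gene, and capitals mark matches to AGGGG or CCCCT and to the heat shock element GAANNTTCNNGAA or TTCNNGAANNTTC. HSP104 is shown for chrXII:88365-88571 on the plus strand, HSP42 for chrIV:806371-806500 on the plus strand, HSP78 for chrIV:974364-974493 on the minus strand, SSA4 for chrV:364339-364468 on the plus strand and CTT1 for chrVII:654234-654533 on the plus strand.
HSP104: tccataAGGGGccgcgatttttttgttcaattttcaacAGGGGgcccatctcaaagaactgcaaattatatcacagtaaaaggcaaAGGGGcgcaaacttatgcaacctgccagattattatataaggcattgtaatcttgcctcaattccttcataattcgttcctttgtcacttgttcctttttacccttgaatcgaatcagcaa
HSP42: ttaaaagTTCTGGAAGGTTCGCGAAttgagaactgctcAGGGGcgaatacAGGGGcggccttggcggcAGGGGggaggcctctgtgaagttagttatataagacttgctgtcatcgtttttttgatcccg
HSP78: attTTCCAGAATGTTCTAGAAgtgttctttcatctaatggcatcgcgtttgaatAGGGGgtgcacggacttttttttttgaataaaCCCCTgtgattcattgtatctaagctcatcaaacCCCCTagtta
SSA4: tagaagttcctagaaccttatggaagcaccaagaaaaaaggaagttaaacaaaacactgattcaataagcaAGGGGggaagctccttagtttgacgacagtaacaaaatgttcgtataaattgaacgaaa
CTT1: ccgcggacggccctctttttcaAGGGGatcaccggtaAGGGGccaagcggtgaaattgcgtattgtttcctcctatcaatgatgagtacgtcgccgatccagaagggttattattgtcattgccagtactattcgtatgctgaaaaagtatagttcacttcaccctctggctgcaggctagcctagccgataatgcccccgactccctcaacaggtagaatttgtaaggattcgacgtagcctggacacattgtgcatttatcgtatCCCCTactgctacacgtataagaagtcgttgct

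The HSP104 peak, 207 bases long, held 3 stress response elements, at -252, -220 and -172 bases from the gene start, the first base of the annotated gene. HSP42 and HSP78 each carried 3 stress response elements and a run of 2 overlapping heat shock element matches, at -243 and -238 for HSP42 and at -247 and -242 for HSP78. CTT1 had stress response elements at -591, -378, -363 and -133, of which the last 3 lie in the stretch shown, and SSA4 had them at -432 and -179, of which the last is shown. The HSP30 peak held no match to either motif, which says only that these letters are not in it. In windows from 250 bases before to 50 bases after the gene start, a stress response element was present in 7 of the 10 genes and in 21.6% of the 6001 nuclear protein-coding genes searched on both strands. At least 3 of them were present in HSP42 and HSP78 and in 0.483% of all windows. The heat shock element occurred in the windows of HSP42 and HSP78 and in 0.783% of all windows. Imperfect repeats or other spacings were not searched for, so that a window without a match lacks only these exact letters. Stress response elements do not overlap heat shock elements in the stretches shown. A match is a description of the sequence and not evidence of binding.

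The peaks differed in where they lay relative to their genes. The HSP42 peak (chromosome IV, 805815 to 808458, 2644 bases) ran from -806 bases relative to the gene start to beyond the end of the gene. The CTT1 peak (chromosome VII, 653328 to 655155, 1828 bases) ran from -1306 bases upstream to 521 bases into the gene. Both are wide, and their counts include the gene body as well as the promoter. The HSP42 counts also include sequence past the gene, which ends at 807748, so that they cannot be assigned to HSP42 alone. The HSP78 peak (chromosome IV, 974023 to 974641, 619 bases) and the SSA4 peak (chromosome V, 364128 to 364702, 575 bases) covered the promoter and the gene start. The HSP104 peak (chromosome XII, 88365 to 88571) lay wholly upstream of the gene. The HSP30 peak (chromosome III, 156165 to 156909, 745 bases) lay within the gene, from 198 to 942 bases past its start, and was annotated to the transcription end of YCR020W-B, so that it does not measure the HSP30 promoter. Peaks had been called for each day, and those of HSP42, HSP78, SSA4 and CTT1 were called on all 5 days. The HSP104 peak was called on Day 3 and Day 7 only, and the HSP30 peak on every day but Day 7. Comparisons of these peaks between called and other days, also over all 5 days, are therefore not independent of the peak calling. No stretch of 100 bases in any member peak occurred a second time in the reference.

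**Figure D1:**
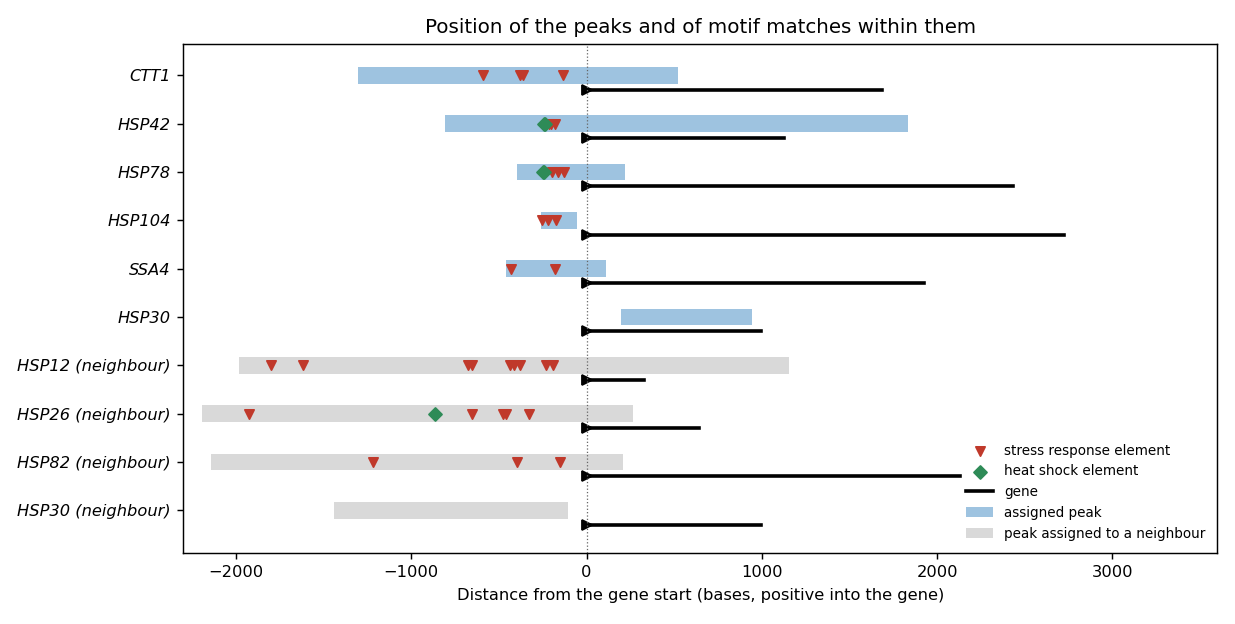
Position of the 6 member peaks (blue bars) and of 4 peaks assigned to a neighbouring gene (grey bars) relative to the gene start, in bases, with the gene as a black line. Red triangles mark stress response elements and green diamonds heat shock elements within the peaks. The HSP104 peak ends 52 bases before the gene start, while the HSP30 peak begins 198 bases inside the gene.

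Counts in peaks totalled between 4748625 and 18693542 per library, with the lowest total in a Day 28 library. The lowest raw count of a member peak in any library was 417, for SSA4. Reads of both Day 3 libraries, both Day 28 libraries and a single Day 10 library came from 2 sequencing runs, and those of the remaining libraries from 1, so that outside Day 10 the effect of a second run cannot be told apart from that of the day. In the same fits, 70.2% of all peaks differed between Day 10 and Day 7, and none between Day 28 and Day 10.

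Levels are given as the deposited normalized counts, in which each library's raw counts had been scaled by a single size factor. Per kilobase of peak and averaged over the 10 libraries, CTT1 had the highest level of the 6, with 6241 normalized counts per kilobase, and HSP104 had 5566. HSP78 followed with 3600 and HSP42 with 3359, while SSA4 had 1898 and HSP30 had 1363. CTT1 and HSP104 stood in the 96.7th and 94.5th percentile of all peaks on this scale, and HSP30 in the 4.58th. The day means of CTT1 (3821 to 9617 per kilobase) overlapped those of HSP104 (4664 to 6421), and those of HSP78 (2666 to 4866) overlapped those of HSP42 (2711 to 3944), so that neither order holds on every day.

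HSP104 encodes the cytosolic disaggregase that works with Hsp70 to dissolve protein aggregates. Its peak had 1159 and 1282 normalized counts (Day 0), 1179 and 1286 (Day 3), 1364 and 1294 (Day 7), 1041 and 890 (Day 10) and 986 and 1041 (Day 28). The 4 libraries after selection lay below the 6 earlier ones. HSP78 encodes the related disaggregase of the mitochondrial matrix, and its peak had 2035 and 2471 normalized counts (Day 0), 2397 and 2635 (Day 3), 3050 and 2975 (Day 7), 1772 and 1529 (Day 10) and 1413 and 2006 (Day 28). Day 7 was the highest for this peak, and again the 4 libraries of Day 10 and Day 28 were the lowest.

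HSP42 encodes a small heat shock protein that gathers misfolded proteins in the cytosol. It had 8193 and 9552 normalized counts (Day 0), 9445 and 11077 (Day 3), 10625 and 10230 (Day 7), 7764 and 6572 (Day 10) and 6933 and 8414 (Day 28). One Day 28 library overlapped the Day 0 range, and the Day 3 and Day 7 ranges overlapped as well. SSA4 encodes a stress-inducible cytosolic Hsp70, and its peak had 1114 and 1044 normalized counts (Day 0), 1084 and 1176 (Day 3), 996 and 994 (Day 7), 1190 and 1212 (Day 10) and 962 and 1141 (Day 28). The Day 7 libraries of SSA4 were low and the Day 10 libraries high, with a ratio of 1.21 between the highest and the lowest day mean, the smallest of the 6 peaks.

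HSP30 encodes a plasma membrane protein that restrains the proton pump Pma1. The peak within the gene had 1044 and 921 normalized counts (Day 0), 900 and 1025 (Day 3), 659 and 654 (Day 7), 1126 and 1423 (Day 10) and 1304 and 1101 (Day 28). Both Day 7 libraries lay below all others. CTT1 encodes the cytosolic catalase T, and its peak had 9229 and 12679 normalized counts (Day 0), 13537 and 15402 (Day 3), 18115 and 17046 (Day 7), 8147 and 5824 (Day 10) and 5892 and 8216 (Day 28). Its day means spanned 2.52-fold between Day 7 and Day 10, the widest of the 6, and no library of Day 10 or Day 28 reached the range of an earlier day.

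Over the 5 days, 5 of the 6 member peaks differed by edgeR's quasi-likelihood F test with Benjamini-Hochberg adjustment over all peaks, where 71.2% of all peaks did so. The adjusted p was 2.92e-04 for CTT1, 3.67e-04 for HSP30, 4.92e-04 for HSP78, 0.00429 for HSP104 and 0.00929 for HSP42. SSA4 did not pass, with an adjusted p of 0.0807 in this edgeR test. With loess offsets that remove a trend of the change with peak abundance, 4 of the 6 passed, where 61.6% of all peaks did so, and the adjusted p of HSP42 was 0.267 in that edgeR fit.

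On the deposited scaling, the profiles of HSP42 and HSP104 were the most alike, although they parted under loess on Day 10 against Day 7, at log2 fold changes of 0.050 and -0.68. Their daily mean log2 levels, each centred on its own mean over the 5 days, differed by a root mean square of 0.069. HSP78 came closest to HSP42, at 0.13, and CTT1 to HSP78, at 0.21. HSP30 and CTT1 were the least alike, at 0.86. The 4 peaks of HSP42, HSP78, HSP104 and CTT1 had their highest day mean on Day 7 and their lowest on Day 10, while those of SSA4 and HSP30 had their highest on Day 10 and their lowest on Day 7.

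**Figure D2:**
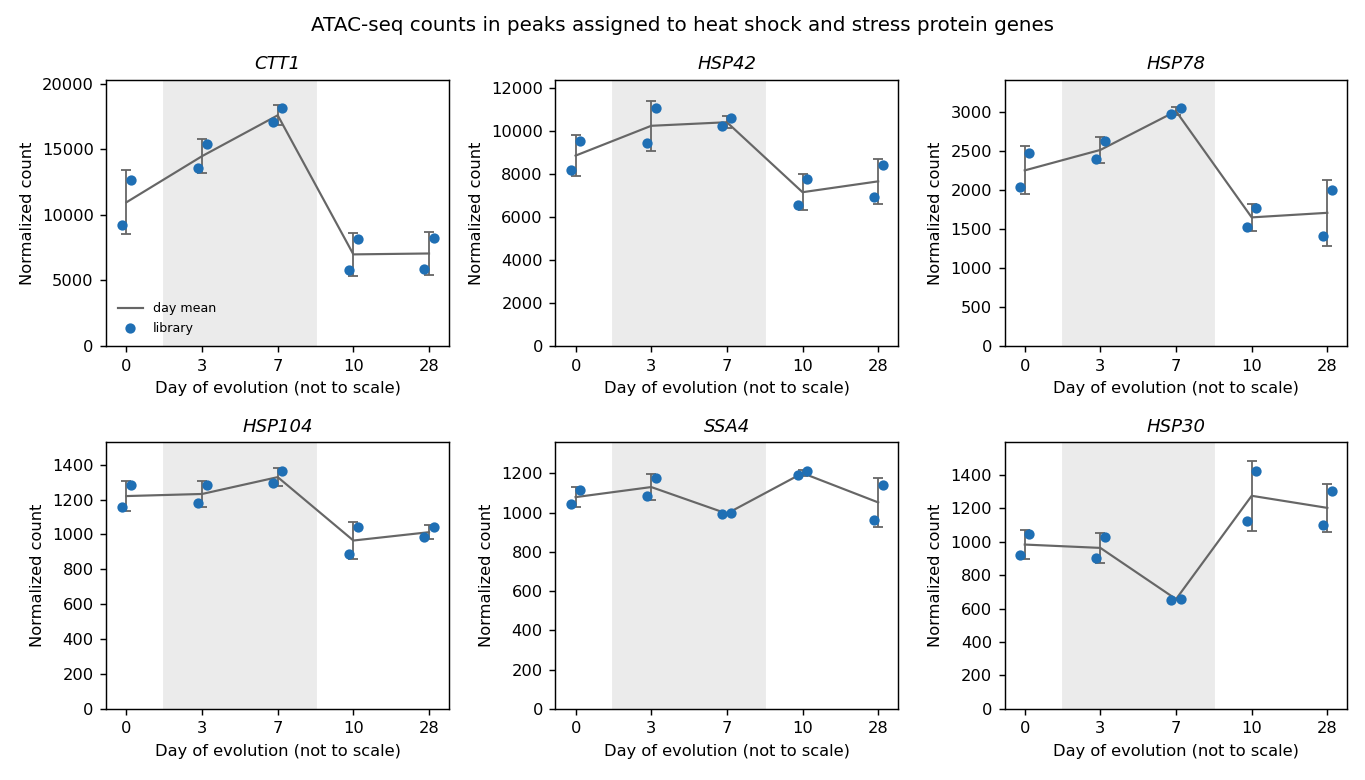
Normalized counts (y axis, from 0) of the 6 member peaks by day (x axis, not to scale), with each library as a blue point, the day mean as a grey line and bars of 1 SD over 2 libraries. The grey band marks the days taken under selection. CTT1, HSP42, HSP78 and HSP104 were lower on Day 10 and Day 28 than on Day 7, while HSP30 was lowest on Day 7, with 659 and 654 normalized counts.

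The first comparison asked whether these peaks differed after 3 days of selection. No member peak was called higher or lower on Day 3 than on Day 0, where a peak was called at an adjusted p under 0.05 in edgeR's quasi-likelihood test of the 4 libraries concerned. Of all peaks, 18.6% were called in this comparison, 9.59% higher and 8.99% lower. At an unadjusted p under 0.05 there was 1 member peak, CTT1, and 1183 of all peaks, and DESeq2 called 0 member peaks and 891 of all peaks. CTT1 had a mean of 14470 ± 1318 normalized counts on Day 3 and 10954 ± 2440 on Day 0 (SD, n = 2 each), and its log2 fold change was 0.38 (95% interval 0.0015 to 0.75), with an adjusted p of 0.147 in edgeR's test. The other 5 had log2 fold changes between -0.055 for HSP30 and 0.18 for HSP42. Without the second Day 0 library, in which CTT1 was higher, HSP78 was at a log2 fold change of 0.29 and CTT1 at 0.63. CTT1 was at 0.026 with loess offsets on peak abundance and at 0.19 with total counts, not called in either.

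Between Day 7 and Day 3, 3 member peaks were called: HSP78 and CTT1 were higher on Day 7 and HSP30 was lower. Of all peaks, 32.1% were called, 14.7% higher and 17.4% lower. HSP78 had a mean of 3012 ± 53.0 normalized counts on Day 7 and 2516 ± 168 on Day 3 (SD, n = 2 each), a log2 fold change of 0.27 (SE 0.059), with an adjusted p of 1.83e-04 in edgeR's test. CTT1 had 17581 ± 756 on Day 7 and 14470 ± 1318 on Day 3 (SD, n = 2 each), a log2 fold change of 0.29 (SE 0.10), with an adjusted p of 0.0252 in edgeR's test. The libraries of the 2 days did not overlap for either. HSP30 had 656 ± 3.57 on Day 7 and 963 ± 88.4 on Day 3 (SD, n = 2 each), a log2 fold change of -0.54 (SE 0.098) and an adjusted p of 5.68e-06 in edgeR's test. HSP104 and HSP42 had log2 fold changes of 0.12 and 0.030, and SSA4 of -0.18 with an adjusted p of 0.0930 in edgeR's test. The HSP30 call held in 1 fit of all 10 libraries, while HSP78 and CTT1 were at 0.26 and 0.28 in that edgeR fit, with adjusted p values of 0.182 and 0.359. The CTT1 call was also lost without the first Day 3 library or without either Day 7 library, at log2 fold changes between 0.20 and 0.32. HSP104 was called higher without the second Day 3 library, at 0.17, and SSA4 lower without the first, at -0.23.

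The next comparison lay across the end of selection. All 6 member peaks were called between Day 10 and Day 7, with CTT1, HSP78, HSP42 and HSP104 lower on Day 10 and HSP30 and SSA4 higher. Of all peaks, 70.2% were called, 37.4% higher and 32.8% lower, so that a call in this comparison was common. CTT1 had a mean of 6985 ± 1642 normalized counts on Day 10 and 17581 ± 756 on Day 7 (SD, n = 2 each). Its log2 fold change was -1.29 (SE 0.15), at an adjusted p of 5.22e-06 in edgeR's test, and its size stood in the 98.1st percentile of all peaks. HSP78 had 1651 ± 171 on Day 10 and 3012 ± 53.0 on Day 7 (SD, n = 2 each), with a log2 fold change of -0.83 (SE 0.067), at an adjusted p of 6.65e-07 in edgeR's test.

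With edgeR's TMM scaling, which was used throughout unless another is named, HSP42 and HSP104 changed less. HSP42 had 7168 ± 842 normalized counts on Day 10 and 10427 ± 279 on Day 7 (SD, n = 2 each), a log2 fold change of -0.50 (SE 0.11), with an adjusted p of 7.23e-04 in edgeR's test. HSP104 had 965 ± 107 on Day 10 and 1329 ± 49.9 on Day 7 (SD, n = 2 each), a log2 fold change of -0.43 (SE 0.083) and an adjusted p of 3.21e-04 in edgeR's test. HSP30 had 1275 ± 210 on Day 10 and 656 ± 3.57 on Day 7 (SD, n = 2 each), a log2 fold change of 1.01 (SE 0.10), with an adjusted p of 2.78e-06 in edgeR's test. SSA4 had 1201 ± 15.5 on Day 10 and 995 ± 1.11 on Day 7 (SD, n = 2 each), a log2 fold change of 0.31 (SE 0.074) and an adjusted p of 0.00156 in edgeR's test. HSP104 had been called as a peak on Day 7 but not on Day 10, and HSP30 on Day 10 but not on Day 7. Their changes here are therefore not independent of the peak calling. For all 6 peaks the libraries of the 2 days did not overlap. The share of all peaks with such libraries was not computed in any comparison, so that this does not set the members apart. With any 1 of the 4 libraries left out, all 6 kept their direction. CTT1 was then between -1.55 and -1.08 and SSA4 between 0.29 and 0.33. The median log2 fold change of the members was -0.47, against 0.042 over all peaks.

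The change on Day 10 against Day 7 also followed how many counts a peak held. Across the 3515 peaks, which share the same 4 libraries, the log2 fold change correlated with peak abundance at r = -0.75, and CTT1 and HSP42 stood in the 95.5th and 92.1st percentile of all peaks in counts not scaled by length. With loess offsets on abundance, CTT1, HSP78 and HSP104 were still called lower, at log2 fold changes of -0.63, -0.85 and -0.68, and HSP30 was still called higher, at 0.67. HSP42 was at 0.050 and SSA4 at 0.051 in that fit, neither of them called, with adjusted p values of 0.406 and 0.493 in edgeR's test. With total counts in place of TMM, which moved the median of all peaks to 0.36, HSP104 was no longer called, at -0.11 and an adjusted p of 0.355 in edgeR's test. The other 5 were still called with total counts, with CTT1 at -0.98, HSP78 at -0.52, HSP42 at -0.19, SSA4 at 0.63 and HSP30 at 1.33. The log2 fold change correlated with abundance in the other comparisons too, at r = 0.64 on Day 3 against Day 0. The r was 0.28 on Day 7 against Day 3 and 0.61 on Day 28 against Day 10. It was 0.73 on Day 7 against Day 0 and -0.27 on Day 28 against Day 0. The part that abundance has in these changes was not tested.

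**Figure D3:**
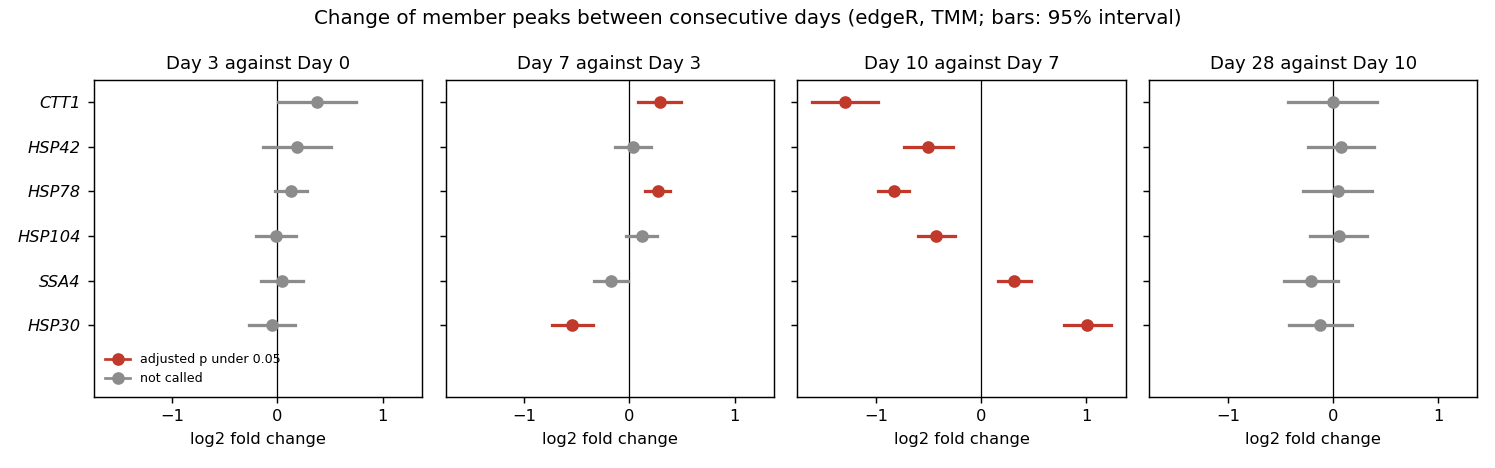
Log2 fold change (x axis) of the 6 member peaks (y axis) for the 4 comparisons of consecutive days, with bars for the 95% interval. Red marks an adjusted p under 0.05 in edgeR's test, and grey marks peaks not called. All 6 were called on Day 10 against Day 7 and none on Day 28 against Day 10.

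**Figure D4:**
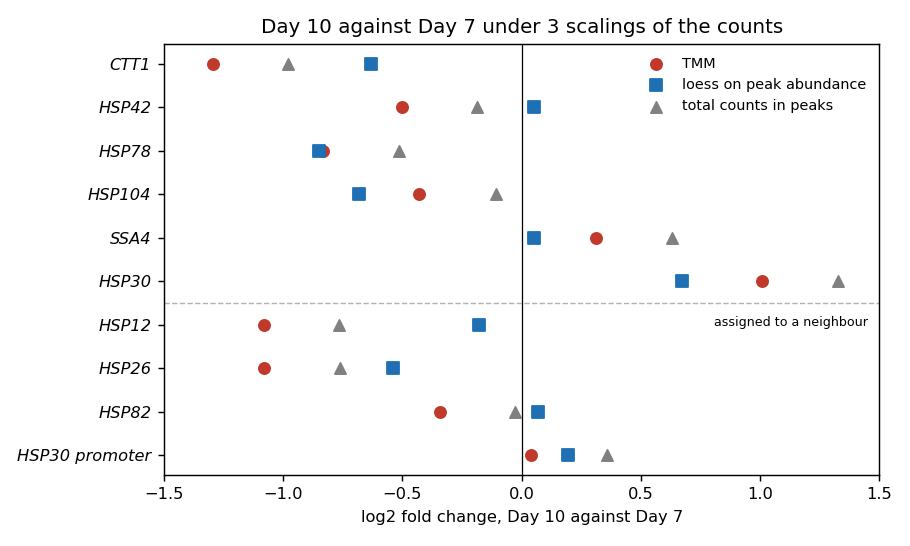
Log2 fold change on Day 10 against Day 7 (x axis) of the 6 member peaks and, below the dashed line, of 4 peaks assigned to a neighbouring gene (y axis), under TMM (red circles), loess on peak abundance (blue squares) and total counts (grey triangles). CTT1, HSP78 and HSP104 were below 0 under all 3 scalings and HSP30 above 0, while HSP42 crossed 0 under loess.

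Between Day 28 and Day 10, both after selection, no member peak was called by edgeR's quasi-likelihood test, and of all peaks 0% were called, 0% higher and 0% lower. At an unadjusted p under 0.05 there were 0 member peaks and 195 of all peaks, and DESeq2 called 0 member peaks and 8 of all peaks. DESeq2 gave no adjusted p for HSP30, HSP78, HSP104 and SSA4, so that only HSP42 and CTT1 could be called by it. CTT1 had 7054 ± 1643 normalized counts on Day 28 and 6985 ± 1642 on Day 10 (SD, n = 2 each), a log2 fold change of -0.0069 with a 95% interval of -0.43 to 0.41. HSP78 had 1709 ± 420 on Day 28 and 1651 ± 171 on Day 10 (SD, n = 2 each), a log2 fold change of 0.042 with a 95% interval of -0.29 to 0.37. SSA4 was the 1 peak whose libraries did not overlap, at a log2 fold change of -0.21 (95% interval -0.46 to 0.046) and an adjusted p of 0.812 in edgeR's test.

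Set against the unevolved population, HSP78 and CTT1 were higher on Day 7 than on Day 0 and HSP30 was lower, so that 3 member peaks were called, against 45.1% of all peaks, 20.5% higher and 24.6% lower. CTT1 had a log2 fold change of 0.66 (SE 0.17), with an adjusted p of 0.00921 in edgeR's test, and HSP78 of 0.39 (SE 0.072), with an adjusted p of 0.00116. HSP30 had a log2 fold change of -0.60 (SE 0.097) and an adjusted p of 5.71e-04 in edgeR's test. HSP42 was at 0.21, HSP104 at 0.10 and SSA4 at -0.14, none of them called. Without the first or the second Day 7 library CTT1 was at 0.62 and 0.70 but no longer called, with adjusted p values of 0.232 and 0.130 in edgeR's test. With loess CTT1 was at 0.25 and HSP30 at -0.38, both still called. With total counts HSP78 was at 0.19 and still called, and SSA4 was called lower at -0.35, with an adjusted p of 0.0352 in edgeR's test, where the median of all peaks was -0.24. Without the second Day 0 library the log2 fold changes ran from -0.69 for HSP30 to 0.91 for CTT1.

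On Day 28, only CTT1 of the 6 was called lower than on Day 0, and none was called higher, against 8.82% of all peaks, 4.52% higher and 4.3% lower. CTT1 had 7054 ± 1643 normalized counts on Day 28 and 10954 ± 2440 on Day 0 (SD, n = 2 each), a log2 fold change of -0.63 (SE 0.19), with an adjusted p of 0.0429 in edgeR's test. HSP78 had a log2 fold change of -0.38 and an adjusted p of 0.0687 in edgeR's test, HSP104 of -0.26, HSP42 of -0.20 and SSA4 of -0.023. HSP30 was at 0.29, with an adjusted p of 0.164 in edgeR's test. The CTT1 call was lost without the second Day 0 library, at -0.40, and without the first Day 28 library, at -0.41, and without peaks of a mean count under 500, at -0.62 and an adjusted p of 0.0522 in edgeR's test. HSP78 was called lower, at -0.51, without the first Day 0 library, and at -0.66 without the second Day 28 library, where HSP30 was called higher at 0.42. Day 7 and Day 28 were each compared with the same Day 0 libraries.

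Peaks were then sought at the genes without an assigned peak, after the coordinates had been seen, and these were not counted as members. The starts of HSP12, HSP26 and HSP82 lay in wide peaks assigned to YFL015C, YBR071W and YPL239W. The HSP12 peak (chromosome VI, 105273 to 108411) held 9 stress response elements, and the HSP26 peak (chromosome II, 379837 to 382298) held 5 of them and 1 heat shock element. The HSP82 peak lay on chromosome XVI from 98416 to 100770. A peak upstream of HSP30 (chromosome III, 157215 to 158550) was assigned to YCR022C. SSA3, which encodes another stress-inducible Hsp70, had its nearest peak 1213 bases upstream of its start.

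HSP12 encodes a small membrane-associated stress protein, and its peak had 16613 and 22088 normalized counts (Day 0), 22562 and 26890 (Day 3), 27499 and 25683 (Day 7), 13973 and 10514 (Day 10) and 10767 and 15240 (Day 28). HSP26 encodes a small heat shock protein, and its peak had 6885 and 8646 normalized counts (Day 0), 8092 and 9509 (Day 3), 12895 and 11754 (Day 7), 6089 and 5264 (Day 10) and 5387 and 5850 (Day 28). Both were highest on Day 7, and both were lower on Day 10 than on Day 7, at a log2 fold change of -1.08 for each and adjusted p values of 3.87e-05 for HSP12 and 2.15e-06 for HSP26 in edgeR's test. HSP26 was also higher on Day 7 than on Day 3, at 0.49, and lower on Day 28 than on Day 0, at -0.46, with adjusted p values of 4.69e-06 and 0.0476 in edgeR's test. The Day 28 call was lost without the second Day 0 library, at -0.31, and without the first or the second Day 28 library, at -0.41 and -0.52. Under loess the Day 10 against Day 7 change of HSP12 was -0.18 and that of HSP26 was -0.54, and both were still called.

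HSP82 encodes the stress-inducible Hsp90, and its peak had 5981 and 6472 normalized counts (Day 0), 6689 and 6632 (Day 3), 7266 and 7183 (Day 7), 5681 and 5398 (Day 10) and 5299 and 6213 (Day 28). It was lower on Day 10 than on Day 7, at a log2 fold change of -0.34 and an adjusted p of 0.00189 in edgeR's test, but at 0.068 and not called under loess, and the call was lost without either Day 7 library, at -0.34 and -0.36. The peak upstream of HSP30 had 3437 and 3281 on Day 7 and 3741 and 4059 on Day 3, a log2 fold change of -0.21 with an adjusted p of 0.00392 in edgeR's test, which was lost without either Day 7 library, at -0.24 and -0.18. On Day 10 it had 3341 and 3370, and its log2 fold change against Day 7 was 0.038 under TMM and not called, but 0.19 under loess and 0.36 with total counts and called higher in both. The peak inside the gene was at 1.01 under TMM, 0.67 under loess and 1.33 with total counts. The difference between these HSP30 peaks was not tested. These wide peaks include the neighbouring genes, so that their counts cannot be assigned to the heat shock genes alone.

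**Figure D5:**
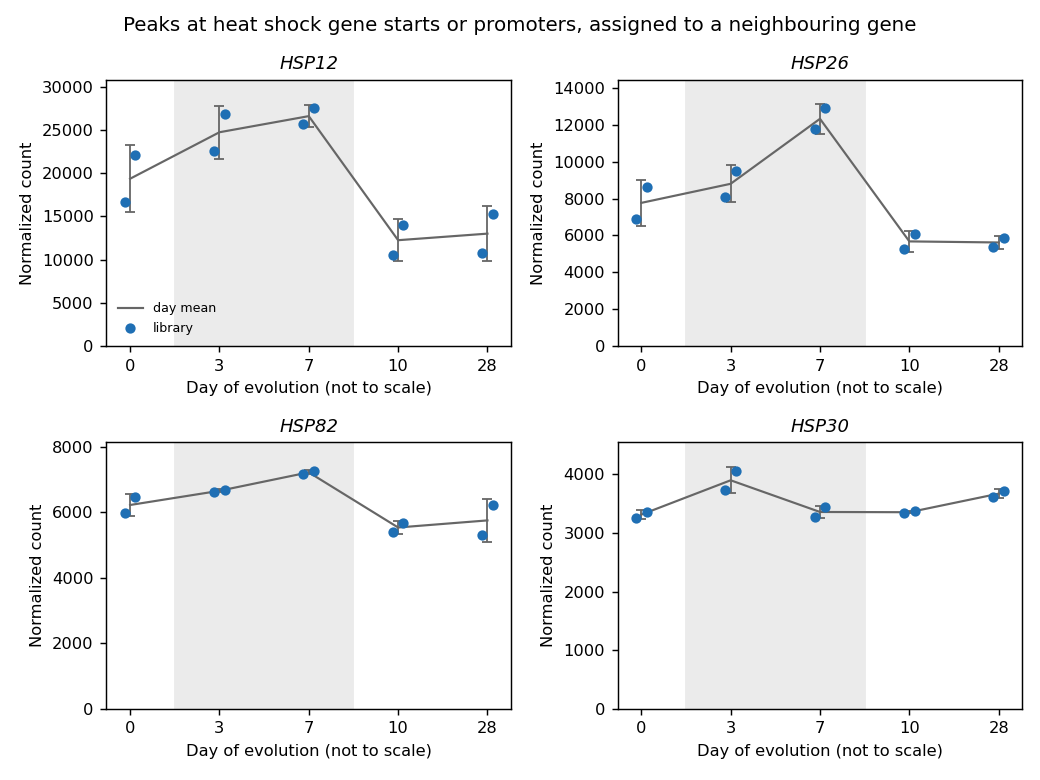
Normalized counts (y axis, from 0) by day (x axis, not to scale) in the 4 peaks that hold the start of HSP12, HSP26 or HSP82, or lie upstream of HSP30, and are assigned to a neighbouring gene. Blue points are libraries, the line is the day mean, bars are 1 SD over 2 libraries, and the grey band marks days under selection. HSP12 and HSP26 were lower on Day 10, at 13973 and 10514 and at 6089 and 5264, than on Day 7.

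The rest of the pathway was described with 3 lists of 79 other genes: 14 regulators of the heat shock and general stress responses, 33 other chaperones and cochaperones, and 32 other general and oxidative stress genes. They had 42 peaks at 41 genes. On Day 10 against Day 7, 26 of the 42 were lower and 6 higher, where 32.8% of all peaks were lower and 37.4% higher, with a median log2 fold change of -0.28 against 0.042 over all peaks. The general and oxidative stress genes had 11 of 15 lower and 1 higher, the chaperones 11 of 20 lower and 3 higher, and the regulators 4 of 7 lower and 2 higher. Under loess 20 of the 42 were lower and 8 higher, with a median of -0.14, where 59.3% of all peaks were called, 30% lower and 29.3% higher. In that fit the stress genes had 7 lower and 3 higher with a median of -0.11 (-0.60 under TMM), the chaperones 11 lower and 5 higher with -0.21 (-0.24 under TMM), and the regulators 2 lower and 0 higher with 0.039 (-0.25 under TMM). GRE1, which encodes a stress-induced hydrophilin, had the largest fall of the lists, at -1.65 with an adjusted p of 3.63e-06 in edgeR's test. PSR1, which encodes a plasma membrane phosphatase of the general stress response, had the largest rise, at 0.74 with an adjusted p of 9.11e-04 in edgeR's test. PSR1 was on the regulator list, of which no peak was called higher under loess.

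On Day 7 against Day 3, 13 of the 42 were higher and 4 lower, where 14.7% of all peaks were higher and 17.4% lower. The general and oxidative stress genes had 8 higher and 3 lower. CTA1, which encodes the peroxisomal catalase A, was the highest of them at 0.72, with an adjusted p of 1.41e-15 in edgeR's test, and GRX1, which encodes a glutaredoxin, the lowest at -0.61, with an adjusted p of 4.67e-06. On Day 3 against Day 0, 2 were higher and 4 lower, where 9.59% of all peaks were higher and 8.99% lower. Under loess 1 was higher and 5 lower, where 11.6% of all peaks were called, 6.63% higher and 4.95% lower. SSC1, which encodes the mitochondrial Hsp70, was higher at 0.40, and 1 of the 2 peaks of HSP60, which encodes the mitochondrial chaperonin, was lower at -0.61, with adjusted p values of 0.00254 and 0.00225 in edgeR's test. The other HSP60 peak was at 0.085. Under loess no chaperone peak was called higher, so that the SSC1 call was lost, and the 1 higher peak was a regulator. The number called of the 42 was 5 and 7 on Day 7 against Day 3 without the first or the second Day 7 library, and on Day 3 against Day 0 it was 10 without the second Day 0 library and 3 and 2 without the first or the second Day 3 library.

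On Day 28 against Day 10, 0 of the 42 were called by edgeR's quasi-likelihood test, and 1 had an unadjusted p under 0.05 in edgeR. DESeq2 also called 0 of the 42, but it gave some peaks of this comparison no adjusted p. On Day 7 against Day 0, 14 were higher and 5 lower, where 20.5% of all peaks were higher and 24.6% lower. Under loess 10 were higher and 7 lower, where 35.4% of all peaks were called, 17.8% higher and 17.6% lower. There were 31 called without the second Day 0 library and 3 and 5 without the first or the second Day 7 library. On Day 28 against Day 0, 6 were lower and none higher, where 4.3% of all peaks were lower and 4.52% higher, with 0 called without the second Day 0 library and 1 and 14 without the first or the second Day 28 library. HSF1 itself did not pass the test over the 5 days, with an adjusted p of 0.559 in edgeR's F test. HSC82, the constitutive Hsp90 and close paralog of HSP82, was lower on Day 10 than on Day 7 at -0.28, and SSA1, a constitutive Hsp70, at -0.48, with adjusted p values of 6.28e-04 and 1.43e-04 in edgeR's test. With total counts HSC82 was at 0.038 and not called, and under loess SSA1 was at -0.10 and not called. No peak was assigned to SSA2, MSN2 or MSN4.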

How the data were processed

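The data were 2 ATAC-seq libraries for each of 5 days. Per the labels and methods, the authors trimmed reads with Trim Galore 0.5.0, mapped them with Bowtie2 2.2.9 to R64, called peaks per day with MACS2 2.1.1, merged them with bedtools 2.30.0, annotated them with HOMER and deposited raw counts per merged peak from featureCounts 1.6.3. In the deposited normalized counts, a signal, each library was scaled by a single size factor, and the authors named DESeq2 1.30.1. The deposited peak positions are on R64. Whether duplicate, mitochondrial or multiply mapped reads were removed is not given in the sources used here.

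The members and lists were chosen with earlier results of these data known. Raw counts were tested with edgeR 4.0.16 in R 4.3.3 (TMM, filterByExpr, quasi-likelihood test, Benjamini-Hochberg adjustment at 0.05 over 3515 peaks), with 1 fit per pair of days. The filter removed 0 peaks. The named genes were all members, the called list peak with the largest rise and the largest fall per comparison of consecutive days whose libraries do not overlap, and HSC82, SSA1, SSA2, HSF1, MSN2 and MSN4 where they had a peak. All list symbols were matched to RefSeq, and promoter windows were cut from its R64 genome. In simulated data for Day 10 against Day 7 with 200 of 3515 peaks changed by 0.5 (log2), edgeR recovered 190, with 7 false calls. It recovered 198 (8 false) on Day 7 against Day 3 and 188 (7 false) on Day 7 against Day 0. Fewer were recovered on Day 3 against Day 0, at 174 (11 false), Day 28 against Day 10, at 167 (12 false), and Day 28 against Day 0, at 165 (9 false). Changes that follow abundance were not simulated.

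Alternatives were DESeq2 1.42.0, 1 fit of 10 libraries, total counts, DESeq2 size factors, loess offsets on abundance (span 0.3), a mean count of at least 500, leaving out each library, and a replicate block for Day 28 against Day 10. The crossed block, the alternatives of the 5-day test and the peaks assigned to neighbouring genes were added after seeing the data. Depth was 4748625 to 18693542 counts per library.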

Additional observations from a re-analysis of the deposited data

How the results depend on the processing

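Among the values of single member peaks, 344 kept their direction and their side of the threshold, 14 gained a call, 12 lost one and 2 turned round, and a change of sign in a value called by neither fit was counted as kept. HSP42 on Day 10 against Day 7 was at 0.050 under loess, the peak at the start of HSP82 was at 0.068, and HSF1 and HSC82 were at 0.21 and 0.038 with total counts, of which HSF1 was called higher. With total counts 10 other stress peaks were called on Day 3 against Day 0 (6 otherwise). In 1 fit of 10 libraries, 1 member peak (3 otherwise) and 7 other stress peaks (17 otherwise) were called on Day 7 against Day 3, and 11 other stress peaks (6 otherwise) on Day 28 against Day 0. With a mean count of at least 500, 0 member peaks were called on Day 28 against Day 0, with CTT1 at -0.62. The shares of all peaks called in these alternative fits were not computed, so that the counts do not set the stress peaks apart. The cause was not tested.

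Leaving out 1 library gave 0 to 2 member peaks and 2 to 10 other stress peaks on Day 3 against Day 0, 2 to 4 and 5 to 24 on Day 7 against Day 3, 2 to 6 and 3 to 31 on Day 7 against Day 0, and 0 to 3 and 0 to 14 on Day 28 against Day 0. The day left with 1 library was assumed to vary like the other, and the shares of all peaks called in these fits were not computed. On Day 10 against Day 7, it gave 6 member peaks each time.

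Primed and unprimed titles gave a replicate block for Day 28 against Day 10, in which 0 member peaks and 0 other stress peaks were called. Same-labelled libraries deviated in opposite directions (r = -0.67 across 3515 peaks that share the same libraries), which cannot show whether the titles pair them. The crossed pairing, a replicate block chosen after seeing the data, gave 4 member peaks and 15 other stress peaks, with CTT1 at 0.47. The share of all peaks called with the crossed pairing was not computed. The 2 libraries per day, from 1 evolution replicate, limit the precision of these comparisons.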

Other observations

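The order of the 2 libraries within each day is given for the member peaks. The share of all peaks with the same order was not computed, so that this does not set the members apart. On Day 3 the second library was higher than the first in 6 of 6 member peaks, on Day 7 the first was higher in 6 of 6, and on Day 28 the second was higher in 5 of 6, with HSP30 the exception. On Day 10 the first library was higher for HSP42, HSP78, HSP104 and CTT1, while the second was higher for HSP30 and SSA4. On Day 0 the second library was higher for HSP42, HSP78, HSP104 and CTT1 and lower for HSP30 and SSA4. The numbers only name the libraries of a day, and the source of these differences was not tested.

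The density of stress response elements differed between the member peaks. The HSP104 peak of 207 bases held 14.5 per kilobase, HSP78 4.85, SSA4 3.48, CTT1 2.19, HSP42 1.14 and HSP30 0, against 0.933 per kilobase over all peaks.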
